A study of Mus musculus with 12 samples.

Results

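The mRNAs of 35 nuclear genes for subunits of Complex I were read in 6 RNA-seq libraries, each from 1 numbered mouse. The genes were taken from a fixed list of symbols, and all 35 were found among the 55073 gene symbols to which the transcripts were matched. They also all passed a minimum of 10 counts in every library, as did 15002 genes in total. Of the 35, 6 encode core subunits and 29 encode accessory subunits.

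The study compared posterior cortex of Larp1 WT mice with that of Larp1 KO mice, named cKO in its text. LARP1 is an RNA-binding protein that controls mRNAs with a 5′ terminal oligopyrimidine (TOP) motif, a start made of a C and further pyrimidines. Library names in the labels give Nestin-Cre for the WT animals, so both genotypes carry the Cre transgene, and the KO animals also carry floxed Larp1 alleles. Nestin-Cre is expressed in progenitors of neurons and of some glia, so deletion is not limited to one cell type and does not cover every cell of the cortex. The methods name 3 male mice per genotype and no age for this tissue, while the labels list 12 samples, 6 per genotype, as 3 replicates with 2 parts each. The genotype of each numbered mouse could not be read from the sources used here. Values are therefore listed library by library, or by their lowest, median and highest, and WT is not compared with KO. Where values are listed, the order is mouse 678, 687, 688, 698, 700 and 703.

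Complex I (NADH:ubiquinone oxidoreductase) is the entry point of the mitochondrial respiratory chain. It takes electrons from NADH in a peripheral arm, hands them along iron-sulfur clusters to ubiquinone, and pumps protons through a membrane arm. Core subunits carry the catalytic steps and are conserved from bacteria, and the accessory subunits surround them and are needed for assembly and stability. The hydrophobic core subunits of the membrane arm come from the mitochondrial genome. Neurons depend heavily on oxidative phosphorylation, and inherited Complex I defects often affect the brain.

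Library totals ran from 34689262 to 44463362 expected counts, and the 35 mRNAs had between 391 and 3195 counts each in a library. Slc17a7, the vesicular glutamate transporter of excitatory cortical neurons, ran from 346.5 to 492 TPM. Of 5 genes listed as markers from outside the cortex, Pcp2, Alb and Myh6 were at most 0.13 TPM, while Cbln1, a cerebellar granule cell gene, ran from 3.77 to 10.4 and Prox1, a gene of dentate granule cells, from 2.38 to 2.97. TPM is a length-scaled share of all listed RNA in a library. Miscellaneous non-coding RNA took 36.4% of TPM in mouse 703 and 47.8% in mouse 700, so a TPM also moves with that share, and counts scaled to each library's size with TMM factors (TMM CPM) were used to compare libraries. The library of mouse 688 stood apart in 12 immediate early genes, which neuronal activity induces. They summed to 0.0722% of TPM there and to between 0.0206% and 0.0305% in the others. Haemoglobin mRNAs were lowest in the same library, at 0.000143% of TPM against 0.000278% to 0.0018%. Larp1 itself ranged from 6.28 to 19.96 TPM. In bulk tissue, fewer cells of a type and less RNA per cell cannot be told apart.

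Complex I subunit mRNAs were abundant and of like level. Their median TPM ran from 25.9 for Ndufb3 to 114 for Ndufb9, a 4.42-fold span, with 54.4 for the middle gene. Every one of them lay above at least 83.8% of detected nuclear protein-coding genes, whose median was 6.75 TPM. The order of levels was much alike from library to library, with Spearman's rho of 0.875 to 0.972 over the 15 pairs of libraries. These are correlations across 35 genes and share each library's depth. The ranges over 6 libraries overlapped in all 34 neighbouring pairs, and read within libraries the gene with the higher median was the higher one in all 6 for 4 of the 34, among them Ndufa3 over Ndufb8 and Ndufb8 over Ndufs5.

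**Figure D1:**
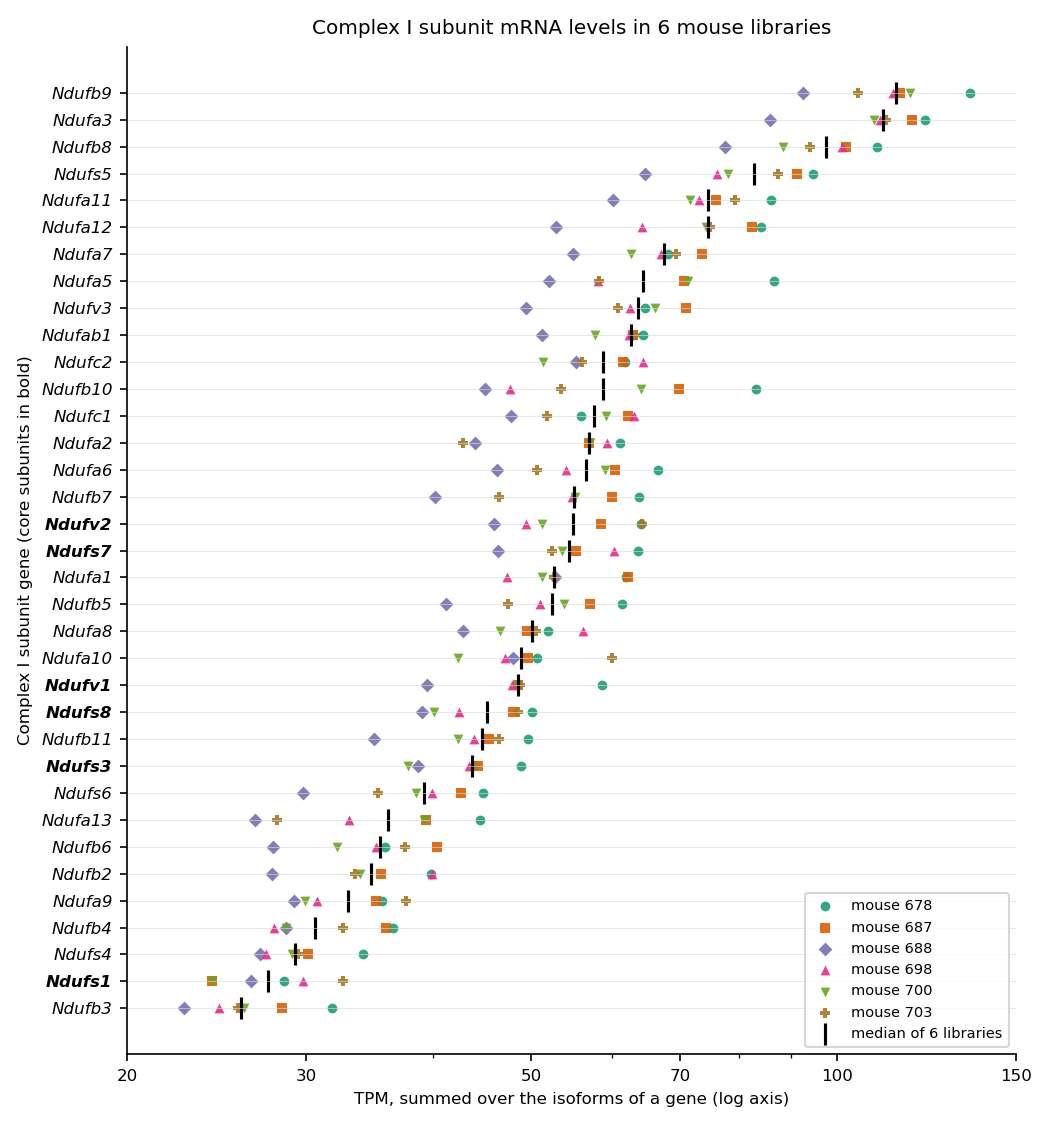
TPM of the 35 Complex I subunit genes (y axis, ordered by median, core subunits in bold) in 6 libraries (x axis, log scale), with 1 symbol per mouse and a bar at the median. Ndufb9 is at the top with a median of 114 and Ndufb3 at the bottom with 25.9, and the ranges of all neighbouring genes overlap.

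The core subunits of the NADH-oxidising module lie at the tip of the peripheral arm. Ndufv1 (chromosome 19, 4007384 to 4012806, minus strand; all positions are GRCm38) holds the flavin that takes electrons from NADH. Its TPM was 58.6, 48.5, 39.5, 47.9, 48.4 and 48.7. Mouse 678 was highest and mouse 688 lowest, with the other 4 libraries within 1 TPM of each other. On TMM CPM mouse 700, at 77.3, was level with mouse 678, at 77.0. Ndufv2 (chromosome 17, 66078638 to 66101559, minus strand), an iron-sulfur protein beside Ndufv1, was at 64.1, 58.6, 46.0, 49.4, 51.3 and 64.3 TPM. Mouse 688 was again the lowest, and mouse 703 was level with mouse 678 on TPM, while on TMM CPM mouse 703 had 47.8 and mouse 678 had 56.6. Ndufs1 (chromosome 1, 63143596 to 63176833, minus strand) encodes the largest subunit, which holds several iron-sulfur clusters. It was the least abundant core mRNA per length, at 28.6, 24.2, 26.5, 29.8, 24.2 and 32.6 TPM. Its lowest libraries on TPM were mouse 687 and mouse 700, but on TMM CPM mouse 700 was not low, at 67.6.

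The core subunits of the ubiquinone-reducing module pass electrons on to ubiquinone. Ndufs3 (chromosome 2, 90894634 to 90904827, minus strand), a structural part of this module, had 48.8, 44.3, 38.6, 43.4, 37.8 and 44.0 TPM. Ndufs7 (chromosome 10, 80249121 to 80256794, plus strand) holds the last iron-sulfur cluster before ubiquinone, and was at 63.6, 55.3, 46.4, 60.4, 53.6 and 52.4 TPM. Ndufs8 (chromosome 19, 3908863 to 3912774, minus strand), a ferredoxin-like subunit, was at 50.02, 48.0, 39.0, 42.5, 40.1 and 48.6 TPM. On TPM mouse 678 was the highest library for each of these, and mouse 688 the lowest for Ndufs7 and Ndufs8, while mouse 700 was lowest for Ndufs3. On TMM CPM mouse 703 was the lowest for Ndufs3, at 32.6, with 37.4 in mouse 700. It was also the lowest for Ndufs7 on that scale, at 27.2, with 27.4 in mouse 688.

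Accessory mRNAs held both ends of the order by median TPM. Across the 35 genes, Spearman's rho between median TPM and TPM-weighted transcript length was -0.67, so shorter mRNAs tended to stand higher. Ndufb9 (chromosome 15, 58933756 to 58939488, plus strand), a membrane-arm protein of the LYR family that binds an acyl carrier protein, had 135, 115, 92.5, 114, 118 and 105 TPM. Ndufa3 (chromosome 7, 3617373 to 3620327, plus strand), a small membrane-arm subunit, had 122, 118, 85.8, 110.1, 109 and 112 TPM. For both, mouse 688 lay below every other library on TPM, and for Ndufa3 the other libraries were close together at 109 to 122. On TMM CPM mouse 703 was the lowest for Ndufb9, at 49.4 against 49.9 in mouse 688. For Ndufa3 mouse 688 stayed the lowest on TMM CPM, at 21.2, and the others ran from 23.7 in mouse 703 to 32.0 in mouse 700. At the other end stood Ndufb3 (chromosome 1, 58586384 to 58595964, plus strand), a small subunit of the distal membrane arm, with 31.8, 28.4, 22.8, 24.7, 26.1 and 25.7 TPM. Its highest library was below the lowest value of Ndufb9 and Ndufa3 in any library. Next above it in the order were the core gene Ndufs1, Ndufs4 and Ndufb4, with medians of 27.5, 29.3 and 30.6 TPM. Without scaling by length the order differed, with median TMM CPM of 67.7 for Ndufs1, 62.2 for Ndufb9 and 29.1 for Ndufa3.

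The other accessory mRNAs filled the span between these ends. In the NADH-oxidising module, Ndufa12 ran from 52.9 to 84.1 TPM, Ndufa7 from 55.0 to 73.6 and Ndufv3, a small partner of the flavin-binding subunit, from 49.5 to 71.1. Ndufs6, which binds zinc, was lower, at 29.8 to 44.8. In the ubiquinone-reducing module, Ndufa5 ran from 52.0 to 86.7 TPM and Ndufa9, a nucleotide-binding subunit of the dehydrogenase family, from 29.2 to 37.7. The 2 did not overlap on TPM summed over isoforms. On TMM CPM, which is not scaled by length, the order was reversed, with 14.6 to 25.7 for Ndufa5 and 37.0 to 46.1 for Ndufa9. Coding isoforms held 28.9% to 47.2% of TPM in Ndufa5 and 99.0% to 99.6% in Ndufa9, so the gap does not carry over to coding isoforms. In the membrane arm, Ndufb8, Ndufs5 and Ndufa11 were the most abundant after Ndufb9 and Ndufa3, with medians of 97.5, 82.8 and 74.6 TPM. Among subunits with disulfide bonds on the intermembrane side, Ndufa8 and Ndufb7 had medians of 50.1 and 55.0 TPM, and the X-linked Ndufa1 and Ndufb11 had 52.7 and 44.7. Mouse 688 was the lowest library for 28 of the 35 on TPM (13.5% of all detected genes) and mouse 678 the highest for 23 (15.1%).

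The core mRNAs were, per length, somewhat below the accessory ones in the middle of their distributions. The median TPM of the 6 core genes over that of the 29 accessory genes was 0.878, 0.799, 0.849, 0.832, 0.801 and 0.939, below 1 in each library. The gene-level ranges overlapped widely, since core medians ran from 27.5 to 54.9 TPM and accessory medians from 25.9 to 114. Counting only isoforms annotated as protein_coding brought the ratio to 0.863 to 0.994. Without scaling by length, on TMM CPM, the ratio turned over to 1.49 to 1.81. Core transcripts were longer, with a median TPM-weighted length of 1023 bases (752 to 2550) against 635 (374 to 1501) for accessory ones. The core genes held 13.5% to 15.2% of the summed Complex I TPM.

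Between libraries, the 35 mRNAs summed to 0.22%, 0.2065%, 0.1595%, 0.1909%, 0.1892% and 0.1913% of TPM. Mouse 688 was the lowest and mouse 678 the highest, and the other 4 spanned 0.1892% to 0.2065%. On this scale the highest was 1.38 times the lowest, and without mouse 688 that ratio was 1.16. On TMM CPM the sum was 1267, 1203, 930.4, 1064, 1237 and 979.6. The ratio was 1.36 there, and without mouse 688 the sum still ran from 979.6 in mouse 703 to 1267 in mouse 678. Mouse 688 and mouse 678 kept their places, but mouse 703 was then next to lowest and mouse 700 next to highest. The scale therefore decided where mouse 700 and mouse 703 fell, and not where mouse 688 fell. In mouse 688 the high immediate early gene and low haemoglobin values given above stood beside the lowest Complex I sum. Mouse 703, next to lowest for Complex I, had the lowest immediate early gene sum, 465.8 TMM CPM against 1816 in mouse 688. Its haemoglobin mRNAs were at 5.96 TMM CPM, against 0.516 in mouse 688 and 1.43 in mouse 700, which was next to highest for Complex I. The part of these genes in the Complex I sum was not tested. Myelin mRNAs also differed between libraries, at 1598, 1046, 1096, 1496, 1510 and 923.1 TMM CPM over 6 oligodendrocyte genes. Mouse 687 lay low for them and mouse 698 high, unlike in the Complex I sum, and their part in the result was not tested either. The 4 excitatory neuron markers summed to 1274, 1305, 1412, 1317, 1367 and 1416. They were lowest in mouse 678, where the Complex I sum was highest, and highest in mouse 703 and mouse 688, where it was lowest, and their part was not tested.

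The members moved together across libraries. For each gene, 3 libraries lie above its own median and 3 below, so the share of all detected genes that is above is close to 50% in any library. Mouse 678 was above the own median for 34 of 35 members (50.5% of all detected genes), mouse 687 for 32 (50.9%) and mouse 700 for 32 (51.6%). Mouse 698 was above it for 5 members (48.9% of all detected genes), mouse 703 for 2 (48.6%) and mouse 688 for 0 (49.5%). The median deviation of the members, on log2(TMM CPM + 1), was 0.15, 0.10, -0.30, -0.09, 0.10 and -0.23, while that of all detected genes was within 0.003 of zero in each library. Mouse 688 was the lowest library for 19 members (15.3% of all detected genes) and mouse 703 for 12 (20.9%). Mouse 678 was the highest library for 20 members, and 16.2% of all detected genes were highest there. On TPM, the members' median deviation in mouse 703 was 0.006, against 0.142 for all detected genes, and in mouse 700 it was -0.034, against -0.126. On both scales the members lay below all detected genes in mouse 703 and above them in mouse 700. Genes of other respiratory complexes lay on the same side in these libraries on TMM CPM. Mouse 678 and mouse 700 were above the own median for all 15 Complex V genes and all 9 Complex III genes, and mouse 688 for 0 of either, while of 11 Complex IV genes these counts were 8, 11 and 0. No test stands behind these counts, since the members share each library and are not replicates.

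**Figure D2:**
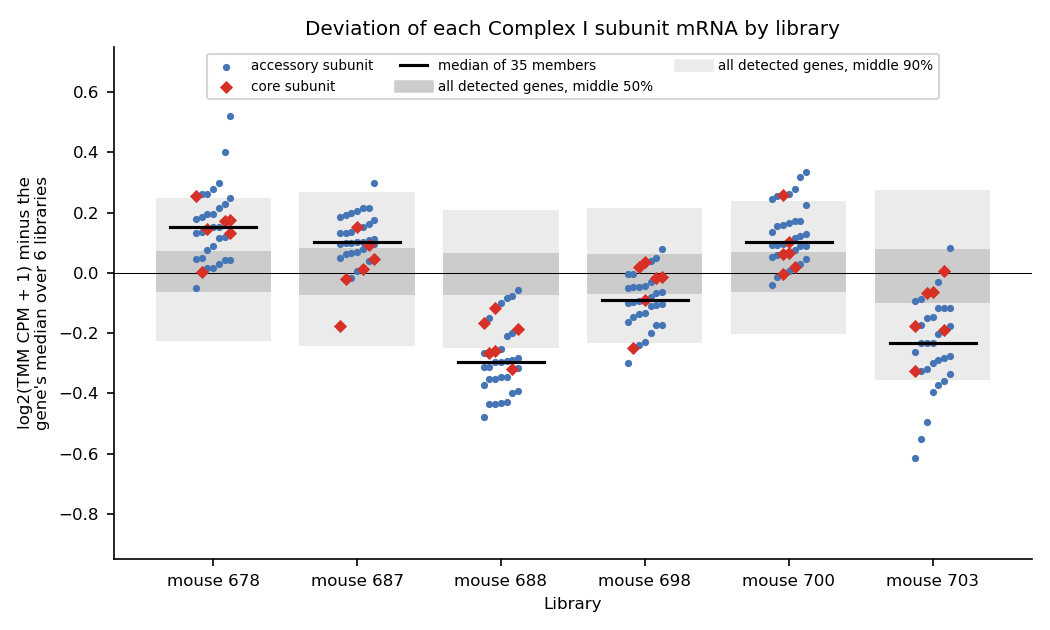
Deviation of log2(TMM CPM + 1) from each gene's own median over 6 libraries (y axis) for the 29 accessory (circles) and 6 core (diamonds) genes in each library (x axis), with a bar at the median of 35 members and grey bands for all detected genes. The members' median is -0.30 in mouse 688 and 0.15 in mouse 678, while all genes centre on 0.

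The range of a gene, its highest over its lowest library on log2(TMM CPM + 1), put the highest library at least 25% above the lowest for 29 of 35 members, where 49.7% of all detected genes did so, and for 24 members without mouse 688. It reached 1.5-fold for 8 members, against 13.2% of all detected genes, and for 5 members without mouse 703. With a library left out, the share of all detected genes was not taken. The median log2 range was 0.50 for the members and 0.32 for all detected genes. Core members had a median of 0.40, with 4 of 6 at 25% and 0 at 1.5-fold, and accessory members had 0.55, with 25 of 29 and 8 of 29. For all 35 the 95% Poisson intervals of the lowest and highest library did not overlap, as for 70.6% of all detected genes, and these intervals cover counting error only. On TPM the members' median range was 0.495 and that of all genes was 0.43, so the gap between them depended on the scale. At 1.5-fold on TPM the members had the smaller share, with 5 of 35 against 3111 of 15002 detected genes.

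The widest ranges belonged to 3 accessory subunits. Ndufb10 (chromosome 17, 24722060 to 24724478, minus strand), a membrane-arm subunit facing the intermembrane space, had 47.8, 40.8, 25.6, 26.6, 41.8 and 26.2 TMM CPM. Mouse 688, 698 and 703 lay between 25.6 and 26.6, and the other libraries at 40.8 or more, a range of 1.83-fold. Ndufa13 (chromosome 8, 69894180 to 69902558, minus strand), also known as GRIM-19, had 48.8, 44.45, 29.2, 35.2, 49.6 and 26.7, also 1.83-fold, with mouse 703 lowest. Ndufa2 (chromosome 18, 36742332 to 36744557, minus strand), a thioredoxin-like subunit of the peripheral arm, had 25.6, 24.1, 18.1, 23.95, 27.1 and 15.3, a range of 1.72-fold. Here mouse 698 sat with the higher libraries, unlike for Ndufb10.

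The narrowest ranges were those of Ndufa10, Ndufs1 and Ndufs4. Ndufa10 (chromosome 1, 92439010 to 92473860, minus strand), related to nucleoside kinases, had 67.5, 68.7, 63.0, 61.8, 66.1 and 70.8 TMM CPM, a range of 1.14-fold. The core gene Ndufs1 had 67.9, 59.8, 62.4, 69.5, 67.6 and 68.1, a range of 1.16-fold, with mouse 687 lowest. Ndufs4 (chromosome 13, 114287795 to 114388258, minus strand), whose loss in mice causes a Leigh syndrome-like disease, had 20.02, 19.7, 17.1, 17.0, 19.7 and 17.2, a range of 1.17-fold. For Ndufa10 mouse 703 was the highest library, and for Ndufs1 mouse 698, so these genes did not share the order seen in the sum. Across the 35 genes, Spearman's rho between range and TPM-weighted length was -0.38 and between range and level in TMM CPM was -0.12.

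Ndufb5 and Ndufa6 were read in full because the study names them. Ndufb5 (chromosome 3, 32736990 to 32751566, plus strand), a membrane-arm subunit, had 38.3, 36.7, 26.9, 30.2, 39.1 and 25.5 TMM CPM. Ndufa6 (chromosome 15, 82350140 to 82354322, minus strand), a LYR-family subunit of the peripheral arm that binds an acyl carrier protein, had 29.4, 26.04, 19.8, 22.7, 29.3 and 18.8. Both had mouse 703 as the lowest library and mouse 688 next, with ranges of 1.51-fold and 1.54-fold. Ndufa12, Ndufb7 and Ndufa5, the other members past 1.5-fold, had ranges of 1.54-fold, 1.60-fold and 1.71-fold.

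**Figure D3:**
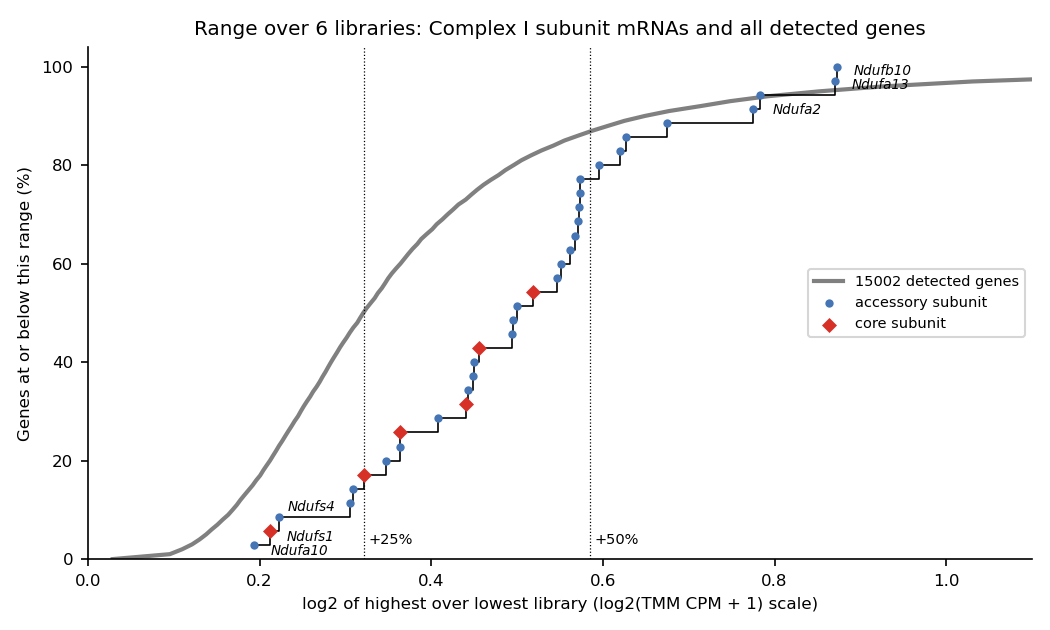
Cumulative share of genes (y axis, %) by the log2 ratio of highest to lowest library (x axis, log2(TMM CPM + 1) scale) for 35 Complex I genes (points, core as diamonds) and 15002 detected genes (grey line). The members' median is 0.50 and that of all genes 0.32, and dotted lines mark a highest library 25% and 50% above the lowest.

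By module, the sums kept the same lowest library on TMM CPM. The NADH-oxidising module (10 genes) had 385.8, 361.8, 289.8, 331.9, 386.6 and 310.4, a ratio of 1.33. The ubiquinone-reducing module (5 genes) had 181.4, 171.8, 136.4, 152.0, 170.8 and 143.9, also 1.33. The membrane arm (19 genes) had 677.0, 645.6, 486.0, 558.4, 656.8 and 506.2, a ratio of 1.39. Mouse 688 was lowest and mouse 703 next in each of them. Ndufab1, the mitochondrial acyl carrier protein that sits in both arms, had 23.0, 23.7, 18.2, 22.1, 23.3 and 19.0.

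Other genes of the pathway followed the order of Complex I in part. The 16 Complex I assembly factors, which help build the enzyme and are not part of it, ranged only 1.14-fold in summed TMM CPM, and 9 of 16 reached 25% singly (56.2%, against 49.7% of all detected genes). The most abundant were Ndufaf3, with a median of 17.5 TPM, and Ecsit, with 11.6. The 7 mitochondrially encoded subunits summed to 0.9425% to 1.544% of TPM, 4.94 to 7.64 times the 35 nuclear ones, and were lowest in mouse 698 and highest in mouse 687. Their ratio of highest to lowest on TMM CPM was 1.73, and mouse 688 was not low for them. The mRNAs of the other respiratory complexes ranged 1.11-fold (Complex II, 4 genes), 1.27-fold (Complex III, 9 genes), 1.27-fold (Complex IV, 11 genes) and 1.26-fold (Complex V, 15 genes), against 1.36-fold for Complex I. Mouse 688 was the lowest library for each of these sums too, and those of Complex III and Complex V placed all 6 libraries in the order of the Complex I sum. Gene by gene, Complex V had a median log2 range of 0.508 and 4 of 15 genes at 1.5-fold (26.7%), against 0.50 and 22.9% for Complex I. No test of these differences was made.

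**Figure D4:**
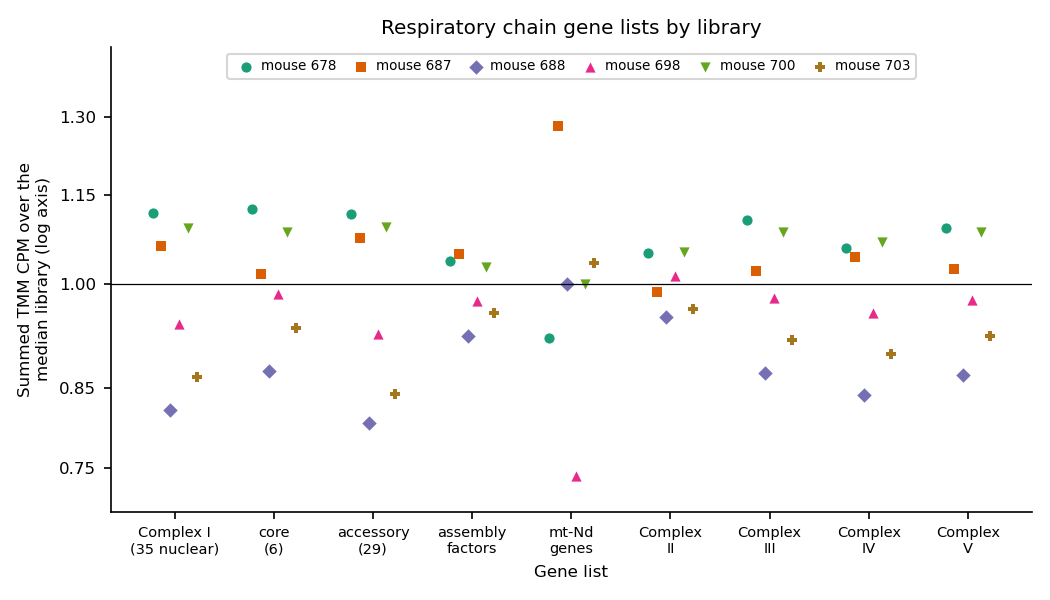
Summed TMM CPM of each gene list over that of its median library (y axis, log scale), with 1 symbol per mouse. Mouse 688 is lowest for Complex I to V and not for the mitochondrially encoded mt-Nd genes, where mouse 698 is lowest.

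The annotated starts of these mRNAs were read because the TOP motif sits at the first base. With the isoform of highest median TPM for each gene, a C at base 1 followed by at least 4 pyrimidines stood in 1 of 35 members (2.86%), Ndufb11, against 320 of 13618 detected nuclear protein-coding genes (2.35%). Letting the motif begin up to 5 bases downstream gave 4 members (11.4%; 10.8% of all), and requiring at least 6 pyrimidines gave 0 members (1.18% of all). The first 20 bases of those 4 members, and of the 3 that the study names or that ranged most, are shown from GENCODE M21, with the longest run of C and T that begins in the first 10 bases in capitals.
Ndufb11: CTCTTTagaagcttgctgtc
Ndufa10: TTCTTTTTTCgacaggcgcc
Ndufb9: TCCTTCCggttccgcctcac
Ndufv1: cgcaCCTTTagtgggcgagg
Ndufa6: agtcagTCCTTCCCTCTgca
Ndufb5: CCgatgcacaagcaaagaac
Ndufb10: aTCCCatggtgcctcgcggc

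Ndufb11 (start at position 20617619 of chromosome X, minus strand), a membrane-arm subunit, had the same start in RefSeq, and 5 pyrimidines follow its C. Ndufa6 had the longest run, 11 bases from base 7, and Ndufa10 opened with 10 pyrimidines whose first base is a T. These members did not share a range: Ndufa6 spanned 1.54-fold over the libraries, Ndufb11 1.41-fold and Ndufa10 1.14-fold. Annotated starts are not measured ones. Of the 32 members with a RefSeq start, 19 lay within 50 bases, 7 of them at the identical position, and 13 farther away, up to 7693 bases for Ndufb5, whose most abundant isoform begins at position 32744756.

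Promoters of 32 members (250 bases before to 50 after the RefSeq start, GRCm38.p6) were searched for motifs of regulators known to act on respiratory genes. GCGCANGCG, read here for NRF1, stood on either strand in 8 (25%), against 14.8% of the 10640 detected coding genes with a promoter and 6.25% of all 32851 promoters. AAGATGGCG, read for YY1, stood in 5 (15.6%), against 3.38% and 1.40%. CCGGAAG, an ETS motif, stood in 4 (12.5%), against 18.7% and 8.86%, and TCAAGGTCA, an ERR motif, in 0, against 0.367% and 0.423%. In 16 members none of these was found. A match is a description of letters and not a binding site. Windows of 30 bases with the YY1 letters in capitals show where it lies.
Ndufa9: attgtgggagAAGATGGCGgccgccgtccg
Ndufc1: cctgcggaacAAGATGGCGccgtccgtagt
Ndufs4: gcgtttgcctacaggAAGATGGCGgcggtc
Ndufs6: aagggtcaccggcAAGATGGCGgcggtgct
Ndufs7: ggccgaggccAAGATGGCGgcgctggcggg

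In all 5 the ATG inside the motif is an annotated start codon of the gene, 23 to 36 bases after the RefSeq start for the first letter of the motif. The windows lie at chr6:126849096-126849125, chr3:51408914-51408943, chr13:114388045-114388074 and chr13:73328433-73328462 on the minus strand and chr10:80249463-80249492 on the plus strand. Of the 8 members with a range of 1.5-fold or more, 7 had a RefSeq promoter, and 3 of these hold the NRF1 letters, as do 5 of the other 25 members searched. The 3 are Ndufb10, Ndufa5 and Ndufa6, with the letters in capitals, at chr17:24724406-24724435 for Ndufb10, chr6:24527697-24527726 for Ndufa5 and chr15:82354248-82354277 for Ndufa6, all on the minus strand.
Ndufb10: tcacctttctGCGCAGGCGtagaggtcccg
Ndufa5: tgtgtgagctGCGCAGGCGcaaatctacct
Ndufa6: cgtggcaccgCGCGTGCGCacgctgaaggg

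The match begins 2 bases before the RefSeq start in Ndufb10 and 25 bases into the transcript in Ndufa6, where the reverse complement is read.

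The files list 173 isoforms for the 35 genes, 88 of them annotated as protein_coding. These held 84.5% to 85.4% of the members' TPM, against 87.5% to 88.5% for all detected nuclear protein-coding genes. Isoforms annotated for nonsense-mediated decay, a pathway that removes mRNAs with early stop codons, held 5.49% to 6.19% against 2.96% to 3.66%. For 24 members over 90% of TPM lay on coding isoforms, and for 6 it was under 50%. In 3 of those 6 the isoform with the highest TPM was not a coding one. These counts of genes were not taken over all detected genes. Ndufa3 had 56.4% to 64.4% of its TPM on a 343-base isoform annotated for nonsense-mediated decay, and its coding isoforms held 39.7% at the median. Ndufs4 had 40.8% to 48.8% on one of 571 bases with the same annotation, and Ndufa5 had 50.1% to 66.5% on a processed transcript of 453 bases. Ndufa10, Ndufab1 and Ndufc1 had 40.7%, 41.6% and 48.4% of TPM on coding isoforms at the median. Short isoforms share most of their bases with longer ones, so these shares depend on how RSEM divided reads.

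**Figure D5:**
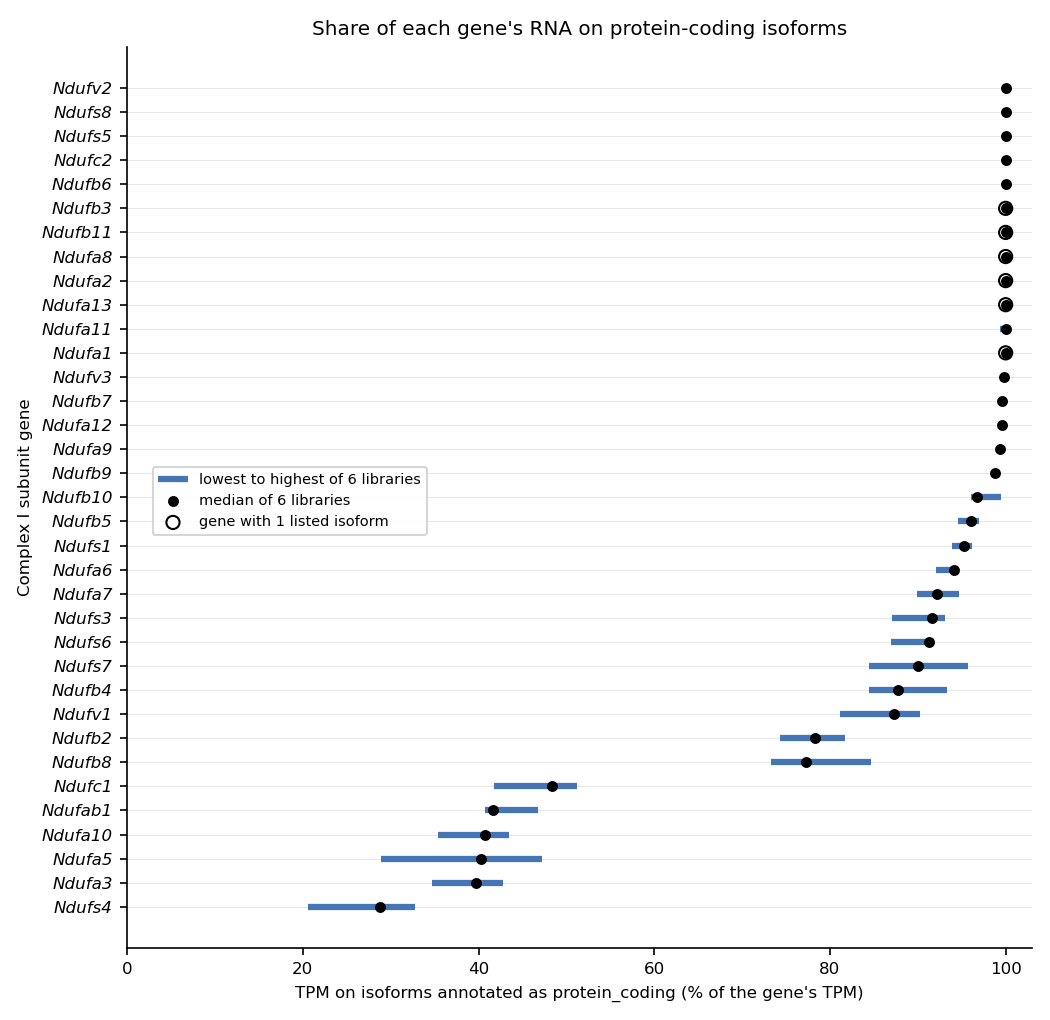
Share of each Complex I gene's TPM on isoforms annotated as protein_coding (x axis, %), with a line from the lowest to the highest of 6 libraries and a point at the median, and genes with 1 listed isoform circled. Ndufs4, Ndufa3, Ndufa5, Ndufa10, Ndufab1 and Ndufc1 lie under 50%, and 24 genes lie above 90%.

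Some levels are uncertain because sequence is shared. Stretches of 50 bases identical to transcripts of another gene occurred in 15 members, mostly pseudogenes, and covered over 20% of the main isoform in 7. They covered 82.9% in Ndufab1, 53.8% in Ndufa12, 41.2% in Ndufs5 and 37.0% in Ndufb4. Exons of 3 members (Ndufb2, Ndufb8 and Ndufb9) overlap another annotated gene on the same strand, and those of 13 overlap one on the opposite strand, such as Mrpl47 for Ndufb5 and Mrpl36 for Ndufs6. None of the 6 core members but Ndufs3, at 35.8%, held a shared stretch. Neither shared stretches nor exon overlaps were counted over all detected genes.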

How the data were processed

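RNA from cortex was rRNA-depleted and sequenced as paired ends. The methods and the notes on processing name cutadapt for trimming, STAR with the mm10 genome for alignment and RSEM for quantification. Strand use in counting and tool versions were not given in the sources used here. Labels name TRIzol and a directional kit, which the methods also list among reagents, while their account of the cortex libraries gives RNEasy columns and a kit without that word. RSEM expected counts were deposited for each transcript without normalization. The authors' TPM values, also deposited for each transcript, were scaled over 142351 transcripts. The files do not state the tissue, and it was taken from the labels, in which all 12 samples are cortex. In 6 files, 12 value columns were used and 18 were not (effective length, FPKM and isoform percent).

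Identifiers were looked up in GENCODE M21 without their version (99.36% matched; the 910 others held 0.246% to 0.272% of counts) and the values summed per gene. Summed expected counts were rounded and scaled by TMM (edgeR 4.0.16, R 4.3.3), with DESeq2 1.42.0 size factors as an alternative. Neither tool was used for a test. Ranges were taken on log2(CPM + 1) over genes with at least 10 counts in every library. The range calculation was tested on simulated data.

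Genotype was not inferred from values, so no mean ± SD, no p-value and no comparison of WT with KO was made. The members and lists were chosen with earlier results of these data known. Genes given in all 6 libraries were the core members, the 2 highest and 2 lowest by median TPM, the 3 widest and 3 narrowest ranges, Ndufb5, Ndufa6 and Ndufb10, and any with an outlying library. Ndufab1 was added after its values were seen. Alternatives were other scalings, pseudocounts, filters, isoform sets and start definitions, and leaving out each library. The 1.5-fold limit was added after seeing the data. Poisson intervals cover counting error only. Promoter sequences are from RefSeq (GRCm38.p6); 3 members had none. Other Complex I genes were not analysed here.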

Additional observations from a re-analysis of the deposited data

Results flagged for a closer look

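Of 44 values examined for an outlying library by Dixon's ratio (35 genes, 8 sums and the core to accessory ratio), 1 passed the 95% critical value, and chance flags about 1 in 20. Ndufa3 had 85.79 TPM in mouse 688, far from the others at 109 to 122. On TMM CPM, where Dixon's ratio was not taken, mouse 688 was at 21.2 and mouse 703 at 23.7. Most of its TPM in every library lay on 1 short isoform annotated for nonsense-mediated decay.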

How the results depend on the processing

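No paired analysis was possible because the value columns carry no replicate number and no test was made. The ratio of highest to lowest Complex I sum was 1.29 to 1.44 over the other units and 1.39 with protein_coding isoforms alone. On percent of TPM it was 1.16 to 1.38 when each library was left out, the lowest value being without mouse 688. The ratio with a library left out was not taken on the other units. The count of members at a range of 25% was 29 to 35 over the other settings, with 30 at a pseudocount of 0.25. It was 35 on TPM, where 75.5% of all detected genes reached it. On TPM rescaled over nuclear protein-coding genes it was 29, where 66.3% of all detected genes did. Leaving out a library gave 24 to 29, and the share of all detected genes was not taken there. The count at 1.5-fold fell from 8 to 5 of 35 on TPM. There 3111 of 15002 detected genes reached it, a larger share than that of the members. The count rose to 12 at a pseudocount of 0.25 and was 5 to 8 leaving out a library, the lowest without mouse 703. For these last settings the share of all detected genes was not taken. The median log2 range was 0.455 to 0.524 over the other settings and 0.425 to 0.50 leaving out a library. The value of 0.455 was on TPM rescaled over nuclear protein-coding genes, where that of all detected genes was 0.4. The core to accessory ratio moved from 0.841 to 0.928 with protein_coding isoforms alone and to 1.6 without scaling by length, since core transcripts are longer, and was 0.832 to 0.849 leaving out a library. The count of members with the TOP definition was 4 with a start within 5 bases and 0 with at least 6 pyrimidines. With any annotated isoform it was 1 of 35 (2.86%, against 10.7% of detected nuclear protein-coding genes). With the RefSeq start it was 1 of 32 (3.12%, against 2.95%). The coding share of 85% of TPM was 90.5% of expected counts. Depth did not limit the values of single members, whose lowest count was 391, but TPM of mRNAs under about 500 bases depends on the effective length that RSEM estimated.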

Other observations

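The TPM of Larp1 was 19.96, 18.8, 6.28, 6.44, 17.5 and 7.32 in mouse 678, 687, 688, 698, 700 and 703. No label ties these libraries to a genotype, and none was assigned from these values.

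The mitochondrially encoded and the nuclear-encoded subunits of the same enzyme did not share an order of libraries. The mt-Nd genes were 5.15, 7.48, 7.64, 4.94, 5.72 and 7.53 times the summed nuclear TPM in the same order of libraries. Among them, mt-Nd1 had the highest median, 3576 TPM, and mt-Nd6, encoded on the other strand, the lowest, 326.7 TPM.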
